A study of Pimephales promelas with 28 samples.

Results

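The comparison set liver of female fathead minnows after 24 h with phenanthrene against liver of control fish of the same time. It took every array labelled 24 h, which gave 9 of the 28 arrays in the series. The 5 exposed arrays carry the agent phenanthrene at a labelled dose of 29 ng per L, and the 4 control arrays carry no agent and a dose of 0 ng per L. All 9 held total RNA of liver from fish labelled as female and sexually regressed, labelled with Cy3 and hybridised on one-colour Agilent arrays, with 1 array per sample. The title of the study names its question as how phenanthrene changes expression in liver within 72 h. The labels give no age, strain or vehicle, and do not say whether an array held the RNA of 1 fish or of several, so the p-values below measure the spread between arrays, which may be technical. The arrays of 48 and 72 h (19 in all) entered the filter on dim probes, the estimate of the spread, the division of probes by brightness and the closing comparison in time.

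Phenanthrene is a polycyclic aromatic hydrocarbon found in petroleum and combustion residues. In fish liver such compounds are classically oxidised by cytochrome P450 enzymes, of which cyp1a is induced through the aryl hydrocarbon receptor, and the products are then conjugated to glutathione, glucuronate or sulphate for excretion. The liver of a female fish also makes vitellogenin, the yolk precursor, under the control of oestrogen, and sexually regressed females are outside their breeding state. None of these genes could be looked up on the array from the probe names. The 15208 probes carry 11862 contig names, 3309 gi numbers and 37 clone names, and 0 of them matched the 64593 genes of the reference table. The names were compared as written, gi numbers with their prefix, and the reference table holds no names of these forms. The 0 therefore does not show which genes the array holds. The labelled tissue could not be checked against liver markers for the same reason. The 10 pathway lists drawn up for this tissue were not compared with the probes, which carry no gene names. Transcripts are therefore given by probe, and no probe sequence was used.

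Values are log2 processed signals minus the 75th percentile of the 15208 probes on the same array, so a value of 0 lies at that percentile. A difference is exposed minus control on this scale, and 1 unit is 2-fold. Levels of different probes are not set against each other, because probes differ in affinity.

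One exposed array stood apart in how many probes it measured. The number of probes that the scanner software called well above background was 9216, 10409, 5127, 9937 and 10398 on exposed replicates 1 to 5, and 10681, 9403, 11934 and 12180 on control replicates 1 to 4. Exposed replicate 3, titled Low116, thus stood below every other array, while the other 8 overlapped. Its negative-control spots had a median of 4.23 log2 units before scaling, against 0.30 to 1.89 on the other exposed arrays and 0.63 to 1.31 on the controls. The 75th percentile of the signal was 143.1 to 487.1 units on exposed and 156.4 to 323.1 on control arrays. The distance between the 75th percentile and the median of an array was 2.83 ± 0.19 log2 units in exposed (SD, n = 5) and 2.61 ± 0.07 in control arrays (SD, n = 4), with the widest distances on exposed replicates 3 (2.98) and 4 (3.09). Of the 5 array measures tested this distance had the smallest exact two-sided permutation p, 0.0317, which was 0.159 after Benjamini-Hochberg adjustment. For the number of probes above background the exact permutation p was 0.111 (adjusted 0.278). With 5 and 4 arrays the number of possible groupings limits how small this p can be.

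**Figure D1:**
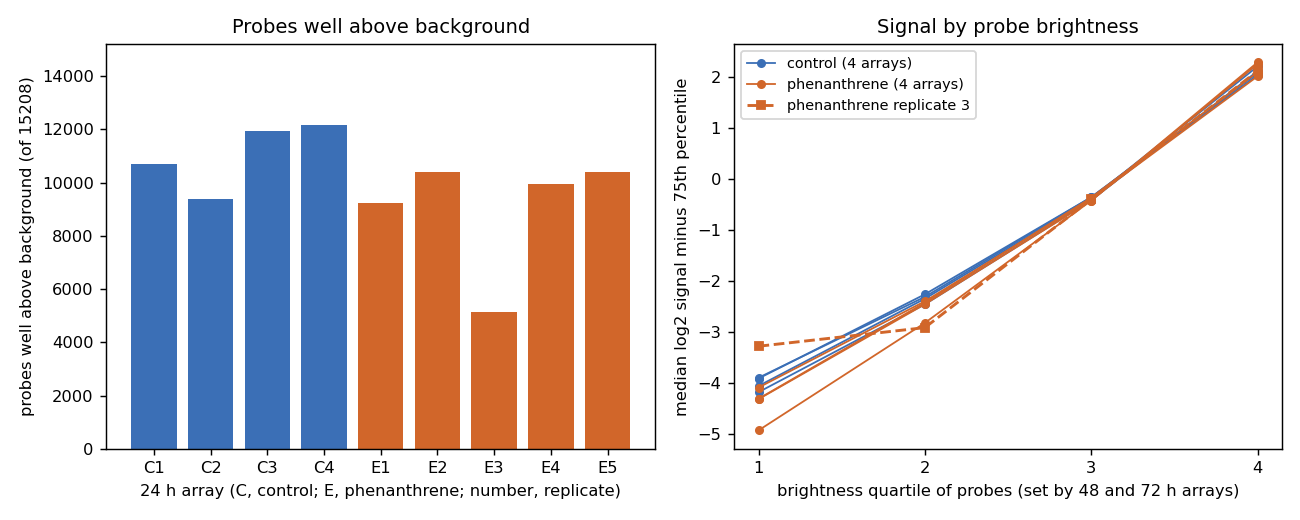
Left, probes well above background on each of the 9 arrays of 24 h (C, control; E, phenanthrene). Right, the median log2 signal relative to the 75th percentile in 4 brightness quartiles of the tested probes, with 1 line per array; exposed replicate 3 has 5127 probes above background and lies above all other arrays in the dimmest quartile, at -3.29.

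No probe passed an adjusted p of 0.05 between exposed and control liver at 24 h. By limma, 0 of 11492 tested probes passed (0%), while 281 (2.45%) reached 0.05 before adjustment. In exposed liver 85 of these were higher (0.74%) and 196 lower (1.71%). Leaving out exposed replicate 3 again gave 0 of 11492 past the adjusted threshold by limma (0%), and the unadjusted count was 449 (3.91%), with 91 higher (0.792%) and 358 lower (3.12%). At 151 of 11471 probes with a value on every array (1.32%), all 5 exposed arrays lay on one side of all 4 controls, 56 higher (0.488%) and 95 lower (0.828%). With that array left out there were 351 such probes (3.06%), 99 higher (0.863%) and 252 lower (2.2%). A non-overlapping group is easier to reach with 4 arrays than with 5, so these shares are not set against each other.

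Over the tested probes the differences had a median of -0.08 and an SD of 0.59, and the median standard error of a single difference was 0.53. A difference beyond 2-fold was estimated for 422 probes in the higher direction (3.67%) and 545 in the lower (4.74%). With exposed replicate 3 left out these numbers were 388 (3.38%) and 943 (8.21%). The balance of directions depended on the scaling. With each array centred on its median, the median difference was 0.14 in place of -0.08, and the unadjusted split was 248 higher and 59 lower in place of 85 and 196. No direction is therefore given for the probes as a set. A 95% confidence interval that stayed inside 2-fold in both directions was obtained for 19.2% of tested probes, and inside 2 log2 units for 76.2%.

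**Figure D2:**
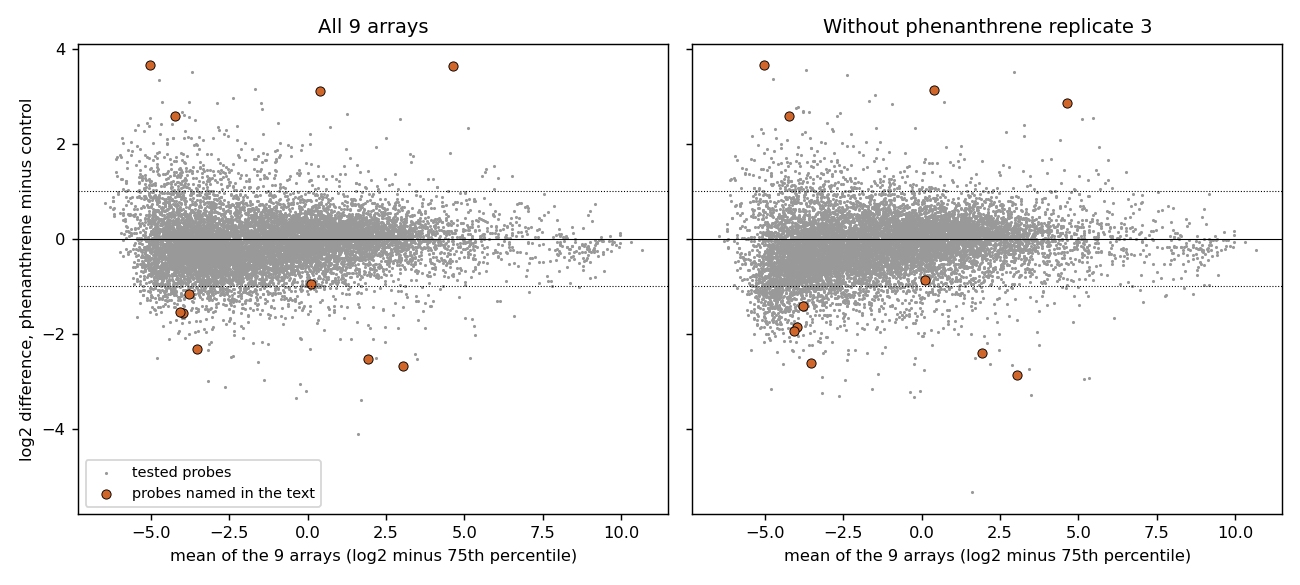
Log2 difference (phenanthrene minus control) of 11492 tested probes against their mean value over the 9 arrays, with all arrays (left) and without phenanthrene replicate 3 (right); dotted lines mark 2-fold and coloured points the 11 probes described. The downward shift of dim probes, at the left of each panel, is larger without that array.

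The difference varied with the brightness of a probe. The tested probes were divided into 4 quartiles of 2873 by their mean on the 19 arrays of 48 and 72 h, which do not enter the 24 h difference. From the dimmest to the brightest quartile the median difference was -0.16, -0.23, -0.025 and 0.019. On the 8 other arrays it was -0.40, -0.20, -0.018 and 0.029. In the dimmest quartile the array medians were -4.32, -4.32, -3.29, -4.94 and -4.10 on exposed replicates 1 to 5, and -4.07, -4.19, -3.92 and -3.91 on the controls. Exposed replicate 3 was thus the highest of the 9 arrays there and exposed replicate 4 the lowest, and only 0.348% of that quartile was well above background on replicate 3, against 31.4% to 89.4% on the others. In the brightest quartile the exposed arrays ranged from 2.01 to 2.28 and the controls from 2.03 to 2.20, so the groups overlapped. Of the 2873 probes in the dimmest quartile, 172 were higher and 178 lower by more than 2-fold with all arrays. Without exposed replicate 3 the numbers were 124 higher and 463 lower. The part of array brightness and background in these shifts was not tested.

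Spread within a group was larger among exposed arrays. The median over tested probes of the SD between arrays was 0.75 log2 units in exposed liver (n = 5), 0.71 without replicate 3 (n = 4) and 0.49 in controls (n = 4). An SD above 1 was found for 32.6% of tested probes in exposed and 14.9% in control arrays. Among probes well above background on all 9 arrays the groups lay closer. The median SD there was 0.54 in exposed liver, 0.55 without replicate 3 and 0.43 in controls. Each array was also set against the median of the other 8. Exposed replicate 3 stood more than 2-fold above it at 2034 probes and below it at 781. Exposed replicate 4 showed the opposite, 757 above and 2602 below, and exposed replicate 5 had 1709 and 2195. Among controls the counts were 761 to 1254 above and 492 to 1688 below. These are descriptions of the arrays, and the difference in spread between the groups was not tested.

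The probe ranked first of 11492 by p was UF_Ppr_AF_102490, of contig FJU.3789.C1. It stood at -4.85, -2.51, -3.09, -3.05 and -1.97 on exposed replicates 1 to 5 and at -6.85, -3.08, -5.41 and -7.39 on the controls. The groups overlapped: 3 exposed arrays lay above the highest control, which was replicate 2, and exposed replicate 1 above the other controls. The difference was 2.59 (SE 0.66, 95% interval 1.24 to 3.94), which ranked 25th by size. Its adjusted p by limma was 0.999. It was well above background on 3 exposed arrays and 1 control. Leaving out exposed replicate 3 left the difference at 2.59 (SE 0.70) and moved its rank to 3. Control replicate 2 was the only control with this probe well above background. With that array left out the fitted difference was 3.45, with an adjusted p by limma of 0.0378. The mean of the exposed arrays was then 4.25-fold above the lowest signals called above background on the other controls. That figure takes all 5 exposed arrays as measured, including replicates 1 and 3, which were not well above background. It carries no sampling error. It leaves out the control that lay within the exposed range, at -3.08, so it is not a minimum for exposed against control liver. Normexp background correction started from median spot signals in place of processed signals and added an offset, which draws dim spots together. With normexp the difference was 0.44 and the rank 1529. The part of each step was not tested. Within slides the difference was 1.29 on slide 1, 2.34 on slide 2 and 5.41 on slide 5.

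UF_Ppr_AF_105225, of contig FJU.7175.C2, ranked 2 by p and 2 by size. It was at -2.97, -1.93, -3.40, -7.13 and -1.63 on the exposed arrays and between -7.61 and -6.12 on the controls, so 4 of the 5 exposed arrays lay above all controls and replicate 4 lay among them. Of those 4, exposed replicate 3 was not well above background. Its negative-control spots, at 4.23 log2 units before scaling, were the highest of all arrays compared. No control array was well above background and 3 exposed arrays were, so the fitted size of 3.65 (SE 1.01) depends on background. Against the lowest signals called above background on the controls, the mean of the exposed arrays was at least 2.76-fold higher. That figure takes all 5 exposed arrays as measured, including replicates 3 and 4, which were not well above background. It compares means and carries no sampling error. On dropping exposed replicate 3 the rank was 8 and the bound again 2.76-fold. With normexp on all arrays the difference was 0.57 and the rank 1153.

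On the lower side UF_Ppr_AF_111419, of contig FJU.2413.C2, ranked 3 by p and was well above background on all 9 arrays. Its values were 0.06, -0.15, -0.72, -0.36 and -0.43 on the exposed arrays and 0.63, 0.55, 0.42 and 0.95 on the controls. Every exposed array lay below every control. The difference was -0.96 (SE 0.27, 95% interval -1.51 to -0.40), with a fold of 1.94, an adjusted p by limma of 0.999 and a rank by size of only 1078. It had the least spread of the 11 probes described here, with SDs of 0.29 (n = 5) and 0.23 (n = 4). It was -0.86 (SE 0.28) and ranked 29 without exposed replicate 3, and with normexp it was -0.54 and ranked 38. The within-slide differences were -0.63, -0.96 and -1.38 on slides 1, 2 and 5.

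Another 2 tested probes have identifiers with the same FJU.2413 stem. UF_Ppr_AF_101331, of contig FJU.2413.C4, was at 0.95, 2.96, 2.19, 2.38 and -0.28 on the exposed arrays and at 3.67, 3.08, 2.59 and 4.67 on the controls. All exposed arrays except replicate 2 lay below the lowest control. Its difference was -1.86 (SE 0.84), with an unadjusted p by limma of 0.0352, and it did not pass after adjustment. UF_Ppr_AF_101151, of contig FJU.2413.C7, differed by -0.22 (SE 0.51) with overlapping arrays. These 2 were looked up after the value of UF_Ppr_AF_111419 was known, and the files do not say how contigs of a stem are related.

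UF_Ppr_AF_105432, of contig FJU_SB_30.483.C1, ranked 4 by p with all arrays and 1 without exposed replicate 3. It stood at -5.82, -3.87, -3.49, -4.58 and -5.57 on exposed and at -3.49, -3.15, -2.55 and -3.21 on control arrays. The groups did not overlap, though exposed replicate 3 and control replicate 1 were equal to the second decimal. The difference was -1.57 (SE 0.44), or -1.86 (SE 0.44) without exposed replicate 3, where the adjusted p by limma was 0.996. It was well above background on 2 exposed arrays and 4 controls. UF_Ppr_AF_109630, of contig FJU.12039.C2, ranked 5 and then 2. It differed by -2.32 (SE 0.65) without overlap, and by -2.61 (SE 0.68) without exposed replicate 3, but was well above background on 1 exposed array and 4 controls. With normexp these 2 probes differed by -0.26 and -0.44 and ranked 2231 and 1248.

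Of the 20 probes with the smallest p over all 9 arrays, 10 were higher and 10 lower. Groups did not overlap for 12 of them (1.32% of all probes), and 4 were well above background on every array (4854 of all 11492). Their ranks without exposed replicate 3 ran from 1 to 95. Their ranks with normexp ran from 1 to 3412 with a median of 257.5. Of the 20 with the smallest p without exposed replicate 3, 4 were higher and 16 lower, and 3 were well above background on every array. Both lists were ranked by p on the arrays they describe, so nothing is read from these counts.

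Probes well above background were then taken alone. On all 9 arrays 4854 probes were well above background, and 4837 of these had no left-out spot. Among the 4837 the median difference was 0.034 with quartiles of -0.22 and 0.27, and the 95% interval lay within 2-fold for 35.1%. In the limma fit over all probes 59 of the 4837 were below 0.05 before adjustment, where 2.45% of all tested probes were. Of the 59, 31 were in the higher and 28 in the lower direction (0.74% and 1.71% of all), and 0 passed. Refitted alone, the 4854 probes gave 0 passing and 77 unadjusted (1.59%), and groups did not overlap at 65 of 4837 (1.34%). When exposed replicate 3 was left out, 7621 probes were well above background with a value on all 8 remaining arrays. Their median difference was -0.029. Of the 7621, 166 were higher and 198 lower by more than 2-fold, where 3.38% and 8.21% of all tested probes were. Below the unadjusted threshold by limma were 143 of the 7621, where 3.91% of all tested probes were.

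The 2 largest higher differences among these probes came with a wide spread between arrays of a group. UF_Ppr_AF_118356, of contig FJU_SB_30.13.C1, stood at 9.83, 3.15, 9.40, 0.91 and 7.98 on the exposed arrays and at 4.11, 3.88, 0.78 and 1.64 on the controls. It was high on exposed replicates 1, 3 and 5, while replicates 2 and 4 lay within the control range. The difference of 3.65 had an SE of 2.45 and a 95% interval of -1.39 to 8.68, so it ranked 3 by size and 1175 by p. UF_Ppr_AF_106187, of contig FJU.1365.C1, stood at 2.99, 1.58, 1.68, 1.29 and 1.27 on exposed arrays. Its controls were at -2.65, 0.41, -4.84 and 1.66. The exposed arrays were closer together than the controls, and control replicate 4 lay inside the exposed range. The difference was 3.12 (SE 1.36) and ranked 143 by p. It was 6.32 within slide 2 and -0.39 within slide 5, where the 1 exposed and the 1 control array were alike.

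The 2 largest lower differences had groups that did not overlap. UF_Ppr_AF_103792, of contig FJU.5044.C1, stood at 1.25, 2.12, 2.61, 3.06 and 0.24 on the exposed arrays and at 5.66, 4.42, 3.08 and 5.00 on the controls. Every exposed array lay below every control, though exposed replicate 4 and control replicate 3 nearly touched. The difference was -2.68 (SE 0.89, 95% interval -4.51 to -0.86), a 6.42-fold lower mean, with an adjusted p by limma of 0.999 and rank 17. It was -2.87 without exposed replicate 3, -2.60 with normexp, where it ranked 6, and -2.80 with quantile normalization. UF_Ppr_AF_108140, of contig FJU.13848.C1, stood at 1.06, -0.29, 0.31, 1.58 and 1.34 on exposed and at 3.43, 5.56, 1.78 and 2.54 on control arrays, again without overlap. Its difference was -2.53 (SE 0.89), or -2.40 without exposed replicate 3 and -2.29 with normexp, where it ranked 11. On slides 1, 2 and 5 the differences were -3.36, -0.24 and -4.75 for UF_Ppr_AF_103792 and -4.11, -0.83 and -1.20 for UF_Ppr_AF_108140, whose sign the lack of overlap fixes.

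The 10 largest higher differences among the 4837 well-measured probes ran from 2.02 to 3.65. Of these, 0 had groups without overlap (38 of the 4837 were higher without overlap; 0.488% of all tested probes). An unadjusted p under 0.05 by limma was found for 1 (31 of the 4837 on the higher side; 0.74% of all). Of the 10 largest lower differences, from -2.68 to -1.88, 4 had groups without overlap (27 of the 4837 were lower without overlap; 0.828% of all). Below that threshold were 6 (28 of the 4837 on the lower side; 1.71% of all). These lists were ranked on the same difference that is described, so nothing is read from their counts, and 0 of the 20 passed after adjustment.

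**Figure D3:**
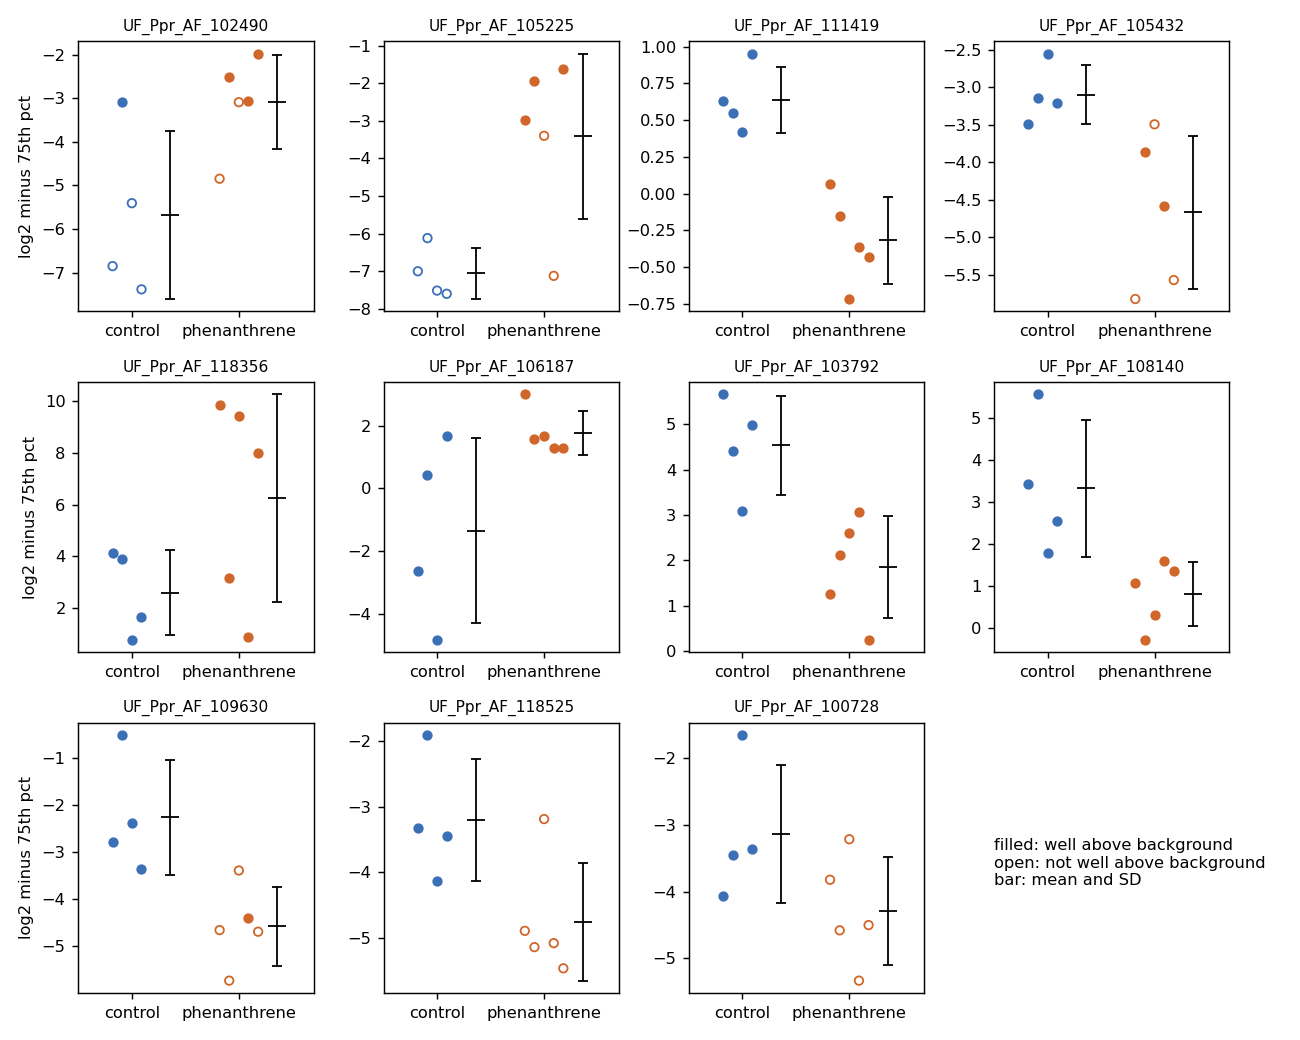
Values of the 11 probes described, on each of the 4 control and 5 phenanthrene arrays of 24 h (log2 relative to the 75th percentile; filled points well above background, open points not), with the mean and SD beside them. Exposed and control arrays do not overlap for 5 of the 11 probes (1.32% of all probes). The 11 were chosen on these same arrays, so nothing is read from that count.

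Calls of well above background, which depend on the signal and on each array's own background, were compared by array. No probe was well above background on at least 4 exposed arrays and on 0 controls, and 8 probes were on 3 exposed arrays and 0 controls. In the other direction 33 probes were well above background on all 4 controls and on 0 exposed arrays. Exposed replicate 3 bears on these counts, since 2786 probes were above background on all 8 other arrays and not on it, but 0 probes were above background on the 4 controls and, among exposed arrays, on it alone, so the number without it was also 33. The differences of the 33 ran from -1.58 to -0.21 with a median of -0.88, or -1.31 without exposed replicate 3. Their direction follows from how these probes were chosen and is given as a description.

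For 18 of the 33 a fold bound above 1 could be given, against the lowest signal called above background on each exposed array. That signal was 77.9 units on exposed replicate 3 and 3.37 to 15.3 on the other exposed arrays, and all 33 had a bound above 1 without that array. A bound compares the means of the arrays and carries no sampling error. The largest was for UF_Ppr_AF_118525, of contig FJU.2096.C1, at 1.85-fold lower in exposed liver, or 3.01-fold without exposed replicate 3. Its exposed values were -4.89, -5.14, -3.19, -5.07 and -5.46 and its control values -3.32, -1.92, -4.12 and -3.45, so exposed replicate 3 lay among the controls and the other 4 below them. Like the other exposed values, that of replicate 3 was not well above background. With normexp the difference of this probe was -0.012. UF_Ppr_AF_100728, named by a gi number, was at least 1.62-fold lower, or at least 2.53-fold without exposed replicate 3. It stood at -3.82, -4.58, -3.22, -5.33 and -4.50 on exposed arrays and at -4.07, -3.45, -1.66 and -3.36 on controls, and the groups overlapped.

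**Figure D4:**
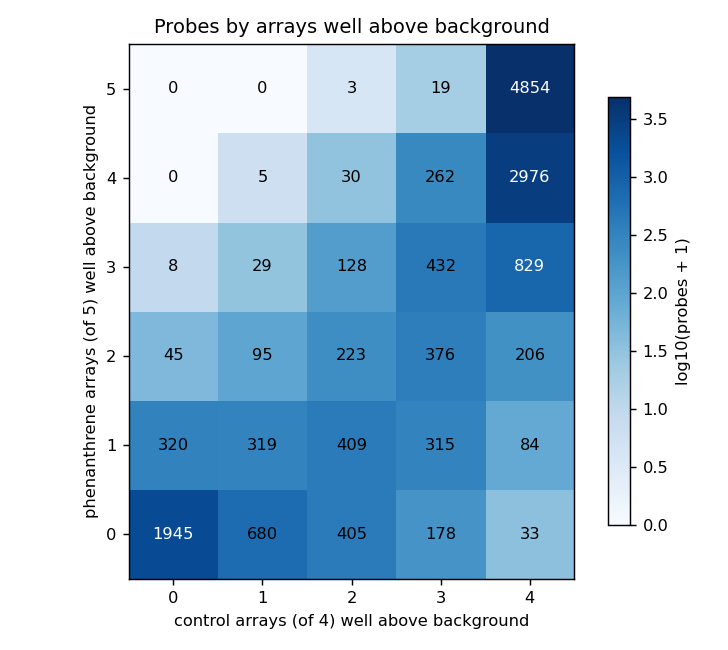
Number of the 15208 probes by how many of the 5 phenanthrene and 4 control arrays of 24 h called them well above background. The corner of 0 exposed and 4 control arrays holds 33 probes, and the cells of 4 or 5 exposed and 0 control arrays hold 0.

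Some contig names, gi numbers or clone names are carried by more than 1 probe. Whether the probes of a name read the same transcript was not checked. Of 709 contigs, gi numbers or clones with more than 1 probe, both probes were tested for 252. The differences of the 2 probes of a contig had the same sign for 142 of 252 contigs and correlated with r = 0.31 (rho = 0.22) across contigs, or r = 0.34 without exposed replicate 3. Where both probes were well above background on all 9 arrays, 8 of 16 had the same sign (r = 0.45). Both probes share the arrays and their scaling, so this is a description. The median gap between the 2 probes was 0.40 log2 units, where the median size of a difference was 0.33. At 10 of the 252 contigs 1 of the 2 probes had an unadjusted p under 0.05 by limma, and at 0 contigs both did. Of all tested probes 2.45% were below that threshold, which is a share of probes and not of contigs. None of the 11 probes described has another probe of the same contig.

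The probes chosen at 24 h were then read on the arrays of 48 and 72 h, which have their own exposed and control samples. Of the 11 probes, 6 had a difference of the same sign at 48 h and 6 at 72 h. By limma 0 of 11 passed at either time, as did 0% of all 11492 probes, and the smallest adjusted p was 0.953 at 48 h and 0.931 at 72 h. At 48 h 1 of the 11 had an unadjusted p under 0.05 (4.25% of all probes did), and at 72 h 0 of 11 did (5.26% of all). That probe was UF_Ppr_AF_109630, at -1.34 (SE 0.62) at 48 h and -0.014 (SE 0.65) at 72 h. UF_Ppr_AF_103792 differed by -1.30 (SE 0.84) at 48 h and 0.13 (SE 0.89) at 72 h. UF_Ppr_AF_108140 differed by -0.048 (SE 0.84) and -0.36 (SE 0.89). UF_Ppr_AF_111419 differed by 0.0010 (SE 0.25) and 0.21 (SE 0.27). Whether the 24 h difference of a probe differed from those of later times was not tested. UF_Ppr_AF_102490 stood at -0.11 (SE 0.62) and 0.031 (SE 0.66). Among the 151 probes without overlap at 24 h, 29 of the 56 higher and 53 of the 95 lower had the same sign at 48 h, and 23 and 56 at 72 h.

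A single array decided 2 calls. Without exposed replicate 1, UF_Ppr_AF_106942 passed by limma with an adjusted p of 0.0126, and it is named here after its values were seen. It stood at 1.63 on exposed replicate 1 and at -1.74, -2.38, -2.79 and -2.61 on exposed replicates 2 to 5, against 0.04, 0.23, 0.79 and -0.20 on the controls. So 4 exposed arrays lay below all controls and 1 above them. With all arrays the difference was -1.79 (SE 0.61) and ranked 23, and without replicate 1 it was -2.59 (SE 0.40). Without exposed replicate 3 it was -1.59, and with normexp on all arrays -1.02. The probe was well above background on 4 exposed arrays and 4 controls. The other call was UF_Ppr_AF_102490 without control replicate 2, given above. The 9 arrays lay on 3 slides. With slide as a block 0 probes passed by limma and 267 had an unadjusted p under 0.05.

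**Figure D5:**
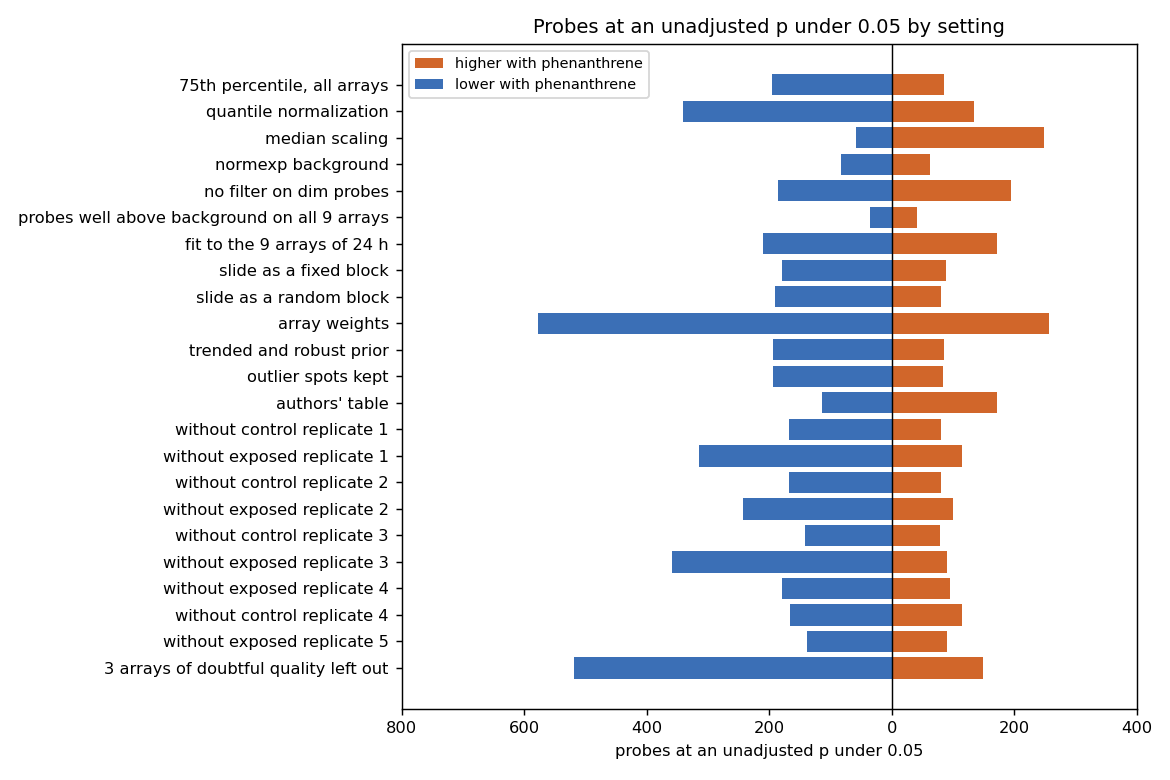
Number of probes at an unadjusted p under 0.05 in limma for phenanthrene against control at 24 h, higher (right) and lower (left), under the processing settings shown, which leave out the fits within single slides. As a share of tested probes the total ran from 1.26% with normexp (145 of 11492) to 7.27% with array weights (835 of 11492). Among probes well above background on all arrays it was 77 of 4854 (1.59%). The higher side was the larger with median scaling, without a filter, in the authors' table and among probes above background on all arrays.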

How the data were processed

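Per the file headers, the deposited intensity values come from Agilent Feature Extraction 10.7.1.1, which gave a linear processed signal per spot of each array. The authors also deposited a table of log2 values; the sources used here do not state how it was scaled, and 1 column of it belongs to no sample and was not used. For exposed replicate 5 that table holds values for 10683 probes.

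Spots marked non-uniform or population outliers were left out. A probe was tested if 3 or more arrays of any group had it well above background (11492). The 6 group means of all 28 arrays were fitted with limma 3.58.1 in R 4.3.3 (22 residual degrees of freedom), with Benjamini-Hochberg adjustment over all tested probes at 0.05. The procedure was tested on simulated data. Array measures were compared by exact permutation in scipy 1.17.1; the distance from the 75th percentile to the median was added after seeing the data.

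Described are the 2 higher and 2 lower probes with the smallest p over all 9 arrays, with the largest difference among probes above background on all 9, with the smallest p without exposed replicate 3, and with the largest bound among probes above background on 4 or more arrays of 1 group and 0 of the other. The comparison, lists and rules were chosen with earlier results of these data known. Normexp used an offset of 50 on median spot signals, in place of the mean signals named in the design. Alternatives covered scaling, background, filter, slide, array weights and each array left out; the number of arrays limits precision. Replicate numbers follow the order of deposit. No 2 arrays of 24 h correlated above 0.956.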

Additional observations from a re-analysis of the deposited data

Results flagged for a closer look

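An array stood apart from the rest of its group in 5 of 32 groups of values examined, where chance gives about 1 in 20. That share is not a yardstick here, since the low count of exposed replicate 3 was known beforehand and the probes had been chosen on their 24 h values. Exposed replicate 3 had 5127 probes well above background, far below the other exposed arrays. Exposed replicate 4 had a 75th percentile of 487.1 units, above the 143.1 to 241.6 of the others. Control replicate 4 had 13 non-uniform spots, the other controls 0 to 2. UF_Ppr_AF_106187 was at 2.99 on exposed replicate 1, and UF_Ppr_AF_118525 was at -3.19 on exposed replicate 3, each above the other 4 exposed arrays. The latter value was not well above background, on the array with the highest negative-control signal of those compared (4.23 log2 units before scaling).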

How the results depend on the processing

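No paired analysis was possible because the replicate numbers follow the order of deposit and pair no arrays. At an adjusted p under 0.05 limma called 0 probes in the alternatives that used all 9 arrays and within slides 1 and 2, and 0 to 1 with an array left out; within slide 5, a lone exposed against a lone control array whose spread was taken from the rest of the series, it called 143. The smallest adjusted p with all 9 arrays was 0.0962, with array weights. Without exposed replicate 3 it called 0 under each of 6 further settings, the lowest adjusted p being 0.0513, with array weights. The unadjusted count of 281 became 475 with quantile normalization, 145 with normexp, 77 among probes above background on all 9 arrays, 835 with array weights, 184 within slide 2, 911 within slide 5 and 667 without the 3 arrays of doubtful quality (exposed replicate 3 and, chosen after seeing the data, the 2 exposed arrays of later times with raised bright-corner spots). It ran from 220 to 449 with an array left out, and was 430 without exposed replicate 1 and 449 without exposed replicate 3. Probes without overlap, 151 of 11471 (1.32%), were 86 with normexp. Their split of 56 higher and 95 lower was 49 and 37 with normexp and 177 and 24 with median scaling. In the authors' table it was 83 and 53 of 10083 probes. Probes without overlap were 244 to 481 with an array left out, where fewer arrays make overlap less likely. Among probes above background on all 9 arrays they were 65 of 4837, a similar share (1.34%). The median difference of -0.08 was 0.14 with median scaling, 0.022 with normexp, 0.016 without a filter, 0.034 among probes above background on all 9 and 0.025 in the authors' table, and -0.12 to -0.029 with an array left out. The split of unadjusted probes was 171 higher and 113 lower in the authors' table and 194 and 185 without a filter. Fitted to the 9 arrays of 24 h alone, the unadjusted count was 381, with 171 higher and 210 lower. The mean 75th percentile of exposed minus control arrays was -10.1 units and 5.31 without exposed replicate 3. Of 269 values of the 11 probes under alternatives 266 kept direction and side of the threshold. That count does not measure stability. Several settings leave a difference unchanged, and probes without overlap keep their sign when arrays are left out. With all arrays the adjusted p by limma of all 11 was 0.999, far from the threshold. Changes in size are not counted, such as UF_Ppr_AF_118525 going from -1.55 to -0.012 with normexp. UF_Ppr_AF_106187 reversed to -0.39 within slide 5. UF_Ppr_AF_102490 passed without control replicate 2, and its value within slide 5 (5.41) was the other exception. The causes were not tested. The number of arrays and the dimness of many probes limit precision.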

Other observations

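The median difference at 24 h was -0.22 for the 1971 tested probes named by gi number and -0.06 for the 9487 contig probes, or -0.28 and -0.09 without exposed replicate 3 and -0.0083 and 0.031 with normexp. In the 2 quartiles of lower signal, which also depends on probe affinity, lay 73.6% of the gi and 45.1% of the contig probes, and the part of this in the difference was not tested. An unadjusted p under 0.05 by limma was found for 51 gi probes (2.59%) and 230 contig probes (2.42%). For exposed replicate 3 the authors' deposited table correlated at 0.953 with the log2 processed signal over probes, and for the other 8 arrays of 24 h at 0.998 to 0.999.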
